A study of Mus musculus with 12 samples.

Results

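Regions antisense to annotated genes are places where LARP1 crosslinking was called on the strand opposite to a gene, with no gene on the called strand. They were taken from 2 lists of LARP1 binding regions by position and strand alone. A region was antisense if it overlapped no GENCODE M21 gene on its own strand, was not within 100 nt upstream of a transcript on that strand, and overlapped a gene on the other strand. The rule held for 473 of 3189 control regions, a share of 14.8% (95% Wilson interval 13.6 to 16.1%), and for 92 of 2367 Rnmt cKO regions, a share of 3.89% (3.18 to 4.74%). The lists thus held 565 antisense regions of 5556, or 499 after overlapping regions of both lists were merged.

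Female mice gave the cells, which were naive CD4 T cells of the lymph nodes. Control mice were Rnmt fl/fl CD4cre - and Rnmt cKO mice were Rnmt fl/fl CD4cre +, so that both carried the floxed allele of the cap methyltransferase gene Rnmt on a C57B6/J background and differed in the CD4-Cre transgene, which acts in cells of the T lineage that express CD4. Age is not given in the labels. The antibody was abcam ab86359 in both, and each genotype gave 1 LARP1 IP library, so that no difference between the lists could be checked against replicates. Rnmt itself had 0 regions on either strand in both lists, which gives no check of the genotype.

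LARP1 binds capped mRNAs that begin with a pyrimidine tract (TOP mRNAs), most of which encode ribosomal proteins or factors of translation, and it also contacts poly(A). In eCLIP, ultraviolet light fixes the protein to RNA, and reverse transcription tends to stop next to the fixed base. A DNA linker is then joined to the end of the cDNA, so the first base of a read marks the crosslink and its strand is the strand of the RNA. Antisense transcripts are made from many mammalian genes, often from starts close to the promoter of the gene on the other strand, and many are unstable.

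Bases could be read for 69 of the 473 control and 7 of the 92 Rnmt cKO antisense regions. These were the regions opposite exons, since their sequence follows from the transcript of the opposite gene. Each window, on the strand of the region, held the first base with 10 nt upstream and 19 nt downstream of it. In control most of them held a stretch of a common string of letters, the reverse complement of the constant part of the DNA linker that the study joined to cDNA ends (InvR3Tr3). The linker and its reverse complement are shown first because the regions below are read against them.
InvR3Tr3 constant part: AGATCGGAAGAGCGTCGTGT
reverse complement: ACACGACGCTCTTCCGATCT

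Shown next are 8 of the 11 control antisense regions with exact matches of 12 nt or more to that reverse complement, with the match in capitals. They lay opposite Stxbp3 (GRCm38 chr3:108840428-108840428, plus strand), Stxbp3-ps (chr19:9559141-9559143, plus), Gm38058 (chr1:64737947-64737948, minus), Zfp536 (chr7:37480465-37480465, plus), Gm26691 (chr3:134156745-134156745, plus), Brms1l (chr12:55865996-55865997, minus), Ralgapa1 (chr12:55677009-55677012, plus) and Acvr1 (chr2:58516092-58516092, plus).
Stxbp3: tccgccACACGACGCTCTTCagtccccg
Stxbp3-ps: atcttccgccACACGACGCTCTTCagtccc
Gm38058: cactattggcCGACGCTCTTCCGctgcccg
Zfp536: gttttgataaGCTCTTCCGATCTccgagta
Gm26691: caaccttccgGCTCTTCCGATCTttctaca
Brms1l: acagtcttccCTCTTCCGATCTggcactgt
Ralgapa1: ctccaggcatactCTCTTCCGATCTtatct
Acvr1: gggggctggtGACGCTCTTCCGcgaggtcc

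The match began at the first base of the region, which follows the first 10 letters of a full line, in 6 of these 8 windows. Stxbp3, a partner of syntaxins in vesicle fusion, and its processed pseudogene Stxbp3-ps have the same letters here, so that the origin of these regions is uncertain between them.

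All 5 regions opposite exons that were found in both lists had windows of another kind. Here the capitals mark the region itself. They lay opposite Cit (chr5:115926124-115926128, minus), Osbpl5 (chr7:143689579-143689579, plus), Lrrc75b (chr10:75551631-75551633, plus), D430042O09Rik (chr7:125714041-125714041, minus) and Notch1 (chr2:26460530-26460530, plus).
Cit: ctttttttttTTTTTttttttttgtactgg
Osbpl5: tttggctttaGcgttaaggccggtactagg
Lrrc75b: cagctactgcTTTtttttttttttgcctcg
D430042O09Rik: cacacacattTttttttttttttttttttt
Notch1: catctgacaaGtagccatggggtgactcga

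Cit, Lrrc75b and D430042O09Rik lay in or next to runs of 22, 14 and 22 T, whereas the windows at Osbpl5 and Notch1 had none longer than 3 and 1.

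Counted over all windows, a match of at least 8 nt to the linker stood in 43 of 69 control antisense regions, a share of 62.3% (50.5 to 72.8%), against 10.7% of all control regions whose bases were read. In control regions in exons on the sense strand, 46 of 824 windows held it, a share of 5.58% (4.21 to 7.37%). The difference from the antisense regions was 56.7 percentage points (Newcombe interval 44.8 to 67.3). In control regions in sense introns 6 of 18 windows held it, a share of 33.3% (16.3 to 56.3%), all 6 among the 9 at a score that occurred at least 20 times in the list, and with no gene on either strand 2 of 3 did (20.8 to 93.9%). In the Rnmt cKO list 0 of 7 antisense windows held it, which allows a share of up to 42.9%, and 9 of 1358 sense exonic windows did, a share of 0.663% (0.349 to 1.25%), against 0.65% of all Rnmt cKO regions with bases read. In tiles of 30 nt over both strands of the RefSeq promoter windows, 1776 of 657020 held such a match, a share of 0.270% (0.258 to 0.283%).

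Of the 43 matches 25 were 10 nt or longer and the longest, at Stxbp3 and Stxbp3-ps, were 14 nt. Of the same 43, 33 began at the first base of the region, and 37 ended with the last 8 letters of the reverse complement, TCCGATCT. That 8-mer was in 37 of 69 control antisense windows, a share of 53.6% (42.0 to 64.9%), in 29 of 824 control sense exonic windows (3.52%, 2.46 to 5.01%), and in 0 of 7 and 0 of 1358 windows of the Rnmt cKO list. It was in 64 of 657020 promoter tiles (0.00974%). The DNA linker and the RNA linker of the protocol share part of their letters. The match was longer for the DNA linker in 6 of the 43 regions and longer for the RNA linker in 0. In the others it was equally long for both, so these matches do not tell the 2 linkers apart.

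The 43 regions with the match had a median score of 8.34 (range 0.725 to 313) and the 26 without it a median of 6.58 (0.0210 to 2251). The score is PureCLIP's measure of how much likelier a crosslink is than the next best state, summed over the sites of a region. It has no unit and is not scaled between libraries. Of the 43, 0 were found in the Rnmt cKO list, and of the 26, 5 were. Over all 69 the share was 7.25% (3.13 to 15.9%), where 26.3% of the control list was shared, so this contrast rests on 5 regions. The part of the linker letters in the calls was not tested, and bases of the regions opposite introns were not read here.

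**Figure D1:**
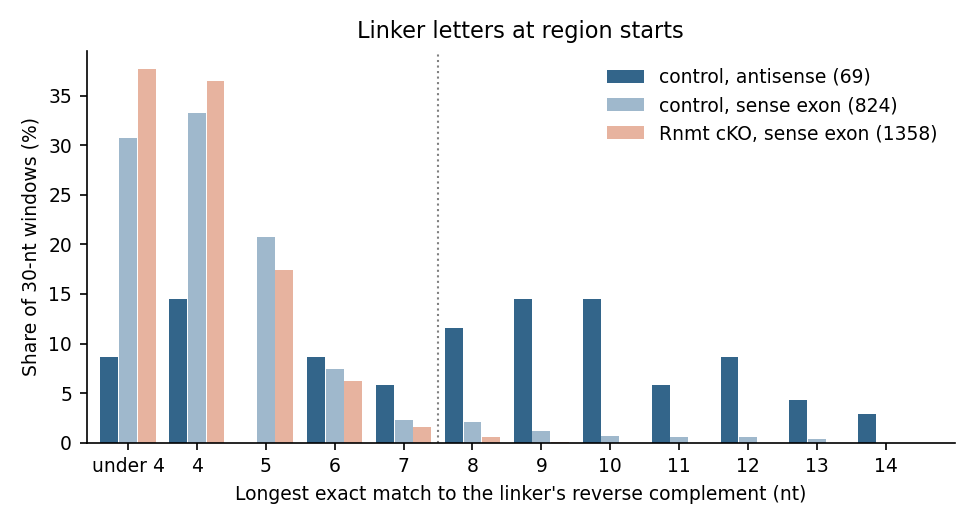
Share of 30-nt windows (y axis, %) by the length of the longest exact match to the reverse complement of the InvR3Tr3 linker (x axis, nt), for the 69 control antisense regions, 824 control sense exonic regions and 1358 Rnmt cKO sense exonic regions whose bases were read. The dotted line marks the minimum of 8 nt, past which lie 43 of the 69 control antisense windows.

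Runs of 8 or more T were the second feature of the windows. They stood in 7 of 69 control antisense windows, a share of 10.1% (5.00 to 19.5%), against 3.68% of all control regions with bases read, and in 3 of 7 Rnmt cKO windows, a share of 42.9% (15.8 to 75.0%), against 6.65% of all Rnmt cKO regions with bases read. The difference from sense exonic regions was 7.35 percentage points in control (2.03 to 16.7) and 36.5 points in Rnmt cKO (9.45 to 68.6). All 3 Rnmt cKO windows were at the shared places opposite Cit, Lrrc75b and D430042O09Rik, which are also among the 7 control windows. The Rnmt cKO value thus adds no further places to the control one. Of the 43 windows with a linker match, 0 held such a run. At the first base of the region T stood in 50.7% of all 69 control windows, with or without such a run. Of the 43 linker matches 33 began at that base, and the share of T there in other regions was not computed.

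The genes on the other strand were next described. In control 404 of 473 antisense regions lay opposite an intron (85.4%, 81.9 to 88.3%) and 69 opposite an exon (14.6%, 11.7 to 18.1%). The 69 comprised 28 opposite coding sequence (CDS), 22 opposite non-coding exons, 13 opposite 3'UTRs and 6 opposite 5'UTRs. In Rnmt cKO 85 of 92 lay opposite an intron (92.4%, 85.1 to 96.3%) and 7 opposite an exon (7.61%, 3.73 to 14.9%). The opposite gene was protein-coding for 398 control and 79 Rnmt cKO regions and a lincRNA for 48 and 10.

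The regions were spread over many genes. The 473 control regions lay opposite 451 genes on 20 chromosomes, 235 of them on the plus and 238 on the minus strand. The 92 Rnmt cKO regions lay opposite 90 genes on 20 chromosomes, with 46 on each strand. After merging, 451 genes had 1 antisense region, 21 had 2 and 2 had 3, so that no gene had 4. The genes with 3, named after their values were seen, were Patj, a scaffold of tight junctions, and Zfp536, a zinc finger gene. All 6 of their regions were in the control list alone and had 1 site each. The scores opposite Patj were 1.31, 8.34 and 8.34, and those opposite Zfp536 were 1.31, 4.83 and 231, so that 5 of the 6 had one of the repeated scores described below.

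The opposite genes were long. Regions opposite introns lay in genes with a median length of 124054 nt in control and 161788 nt in Rnmt cKO, against 82162.5 and 49399.5 nt for the genes of regions in introns on the sense strand. Genes longer than 100 kb made up 55.0% of the former in control (50.1 to 59.7%) and 62.4% in Rnmt cKO (51.7 to 71.9%), and 42.6% (39.6 to 45.7%) and 27.8% (24.4 to 31.4%) of the latter. These are shares of regions and not rates per base of gene. Where a region lay in several genes the rules differed. The opposite gene with the nearest start was taken for antisense regions. For sense introns the median used the shortest gene and the share over 100 kb the longest. Genes with 2 or 3 antisense regions ran in length from 15896 nt (Chil5), 22719 nt (Nol11) and 26734 nt (Smim13) to 1346160 nt (Naaladl2) and 1573570 nt (Ctnna3).

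Opposite genes had LARP1 regions of their own less often than the genes of regions in sense introns did. The share of all annotated genes with a sense exonic region was not computed, so the opposite genes are not set against a background. A region of the same list in an exon of the opposite gene, on its sense strand, was present for 6 of 473 control antisense regions (1.27%, 0.583 to 2.74%) and 2 of 92 Rnmt cKO ones (2.17%, 0.598 to 7.58%). For regions in sense introns the gene had such an exonic region in 93 of 1014 cases in control (9.17%, 7.55 to 11.1%) and 190 of 626 in Rnmt cKO (30.4%, 26.9 to 34.1%). The differences, antisense minus sense intron, were -7.90 percentage points (-9.96 to -5.71) and -28.2 points (-32.2 to -21.7). The opposite genes with an exonic region of their own were Cwc22, Fnbp1, Lats2, Pdzd2, Rnf213 and Snrpb2 in control and Fnbp1 and Kcnab2 in Rnmt cKO.

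Antisense regions were counted over the genes that LARP1 is best known for. Of 88 cytosolic ribosomal protein genes, 79 had a control region in a sense exon and 81 an Rnmt cKO region, and 0 had an antisense region in either list, which allows a share of up to 3.41%. Of 24 other TOP genes, among them the elongation factor genes Eef1a1 and Eef2, 24 had a sense exonic region in both lists and 0 an antisense region (up to 12.5%). Over all protein-coding genes, 384 of 21951 had an antisense region in control, a share of 1.75% (1.58 to 1.93%), and 81 in Rnmt cKO, a share of 0.369% (0.297 to 0.458%). Both shares lie under the limits that the counts of 0 allow, so a difference of these genes from the rest was not detectable. Of 20 T cell genes, 6 had a sense exonic region in control and 5 in Rnmt cKO, with the receptor subunits Cd3d and Cd247, the coreceptor Cd4 and the transcription factor Bcl11b in both. The myeloid receptor gene Csf1r had an antisense region opposite an intron in the control list. Markers of CD8 T cells (2 genes), B cells (6), myeloid cells (5) and NK cells (3) had 0 sense exonic regions in both lists. These lists are too short for a count of 0 to set them apart from the T cell genes. The share of all genes with a sense exonic region was not computed.

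Distance to the start of the opposite gene was measured from the first base of the region to the nearest annotated transcript start (TSS) of that gene. The median was 12295 nt in control (23 to 578970 nt) and 12550 nt in Rnmt cKO (43 to 1072301 nt). Within 1000 nt of a start lay 61 control regions, a share of 12.9% (10.2 to 16.2%), and 8 Rnmt cKO regions, a share of 8.70% (4.47 to 16.2%). With only the transcripts that the annotation tags as basic the shares were 7.79% in control (36 of 462, 5.68 to 10.6%) and 7.61% in Rnmt cKO (7 of 92). Within 50 nt lay 3 and 1. For comparison, the median distance of regions in sense introns to the start of their own gene was 9488 nt in control and 4286.5 nt in Rnmt cKO.

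The 5 control regions nearest a start lay opposite Stxbp3 (23 nt, score 313), Stxbp3-ps (42 nt, 229), Cit (42 nt, 2251), Stk32a (53 nt, 4.83) and Rexo2 (59 nt, 1.31). Of these, Cit was also in the Rnmt cKO list. The 5 nearest in Rnmt cKO lay opposite Cit (43 nt, score 1272), Cys1 (356 nt, 1.51), Zfp799 (478 nt, 15.9), Lrrk1 (568 nt, 20.2) and Cenpi (568 nt, 15.4). All 8 Rnmt cKO regions within 1000 nt of an opposite start were in both lists (67.6 to 100%). Of the 84 farther away 58 were (69.0%, 58.5 to 77.9%), so the intervals overlap. In control 8 of the 61 regions within 1000 nt were in both lists (13.1%, 6.80 to 23.8%), close to the 14.1% (11.1 to 17.8%) of those farther away.

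No antisense region had a close partner across the strands. Within 1000 nt, 0 of 473 control regions had a region of the same list on the opposite strand, which allows a share of up to 0.634%, and 0 of 92 Rnmt cKO regions did (up to 3.26%). Within 10000 nt the counts were 6 and 0. On the same strand, 2 control and 2 Rnmt cKO regions had another region of their list within 1000 nt.

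The RefSeq annotation of GRCm38.p6, for which chromosome 18 was not analysed here, held a gene on the region's own strand for 17 of 473 control regions (3.59%, 2.26 to 5.68%) and 7 of 92 Rnmt cKO regions (7.61%, 3.73 to 14.9%). These regions are antisense in GENCODE M21 and sense in RefSeq. The ones in both lists lay in Srf, which encodes serum response factor, and in Kirrel3os, Gm36129 and Gm42225. The region in Kirrel3os scored 241 in control and 90.8 in Rnmt cKO, and the one in Srf 17.8 and 4.16. Others included Nfia and Gpr35 in control, and Ankrd11, Fbxw7 and Zfp687 in Rnmt cKO. The totals of 473 and 92 include 22 control and 2 Rnmt cKO regions of chromosome 18, which could not be scored. The shares are thus minimum values. None of the regions on other chromosomes lay within 100 nt of a RefSeq start on its own strand.

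The share of antisense regions with a single crosslink site differed between the lists, as it did for all regions. In control 410 of 473 antisense regions had a single site, a share of 86.7% (83.3 to 89.4%), where 82.6% of all control regions did. The others had 2 sites in 37 cases, 3 in 18, 4 in 6 and 5 in 2. In Rnmt cKO 45 of 92 had a single site, a share of 48.9% (38.9 to 59.0%), where 54.7% of that list did, and the others had 2 sites in 24 cases, 3 in 13, 4 in 7, 5 in 1 and 6 in 2. Within the control list the antisense share of single sites lay 4.15 points below that of sense introns (interval of the difference -7.88 to -0.771 points) and 15.0 points above that of sense exons (10.5 to 19.2). Within the Rnmt cKO list it lay 19.6 points below that of sense introns (-30.2 to -8.89) and differed from that of sense exons by -1.23 points (-11.5 to 9.16). From regions with no gene on either strand it differed by 3.20 points in control (-0.918 to 7.07) and -2.97 points in Rnmt cKO (-14.7 to 8.90).

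Many control antisense regions had exactly the same score. A score that occurred at least 20 times in the list was held by 300 of 473 regions, a share of 63.4% (59.0 to 67.6%), where 34.2% of all control regions had one. The share was 27.6% in sense introns (25.0 to 30.4%), 35.8 points lower (30.6 to 40.8), and 4.60% in sense exons (3.37 to 6.25%), 58.8 points lower (54.1 to 63.2). It was 57.3% (53.9 to 60.6%) for regions with no gene on either strand, 6.14 points lower (0.586 to 11.6). All 300 had 1 site, as did all 1091 control regions with such a score. In Rnmt cKO a score that occurred at least 20 times was held by 8 of 92 antisense regions, a share of 8.70% (4.47 to 16.2%), where 1.48% of that list had one. Counting any score held by more than 1 region, 373 of the 473 control regions had one (78.9%, 75.0 to 82.3%), where 56.2% of that list did, and 27 of the 92 Rnmt cKO regions (29.3%, 21.02 to 39.3%), where 13.6% of that list did.

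The repeated scores were few in number. Control had 13 of them and Rnmt cKO had 1. The commonest in control was 1.30928, held by 344 regions, of which 96 were antisense, 145 had no gene on either strand, 88 were in sense introns and 14 in sense exons. The next were 4.83067 in 176 regions (48 antisense), 8.33802 in 142 (41 antisense) and 11.8326 in 101 (23 antisense). The repeated score of Rnmt cKO was 1.50597, held by 35 regions, 8 of them antisense and 0 in sense exons. These regions added little to the summed score. The 300 control regions carried 1.49% of the summed score of their list, and the 100 antisense regions whose score was held by no other region carried 9.03%.

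**Figure D2:**
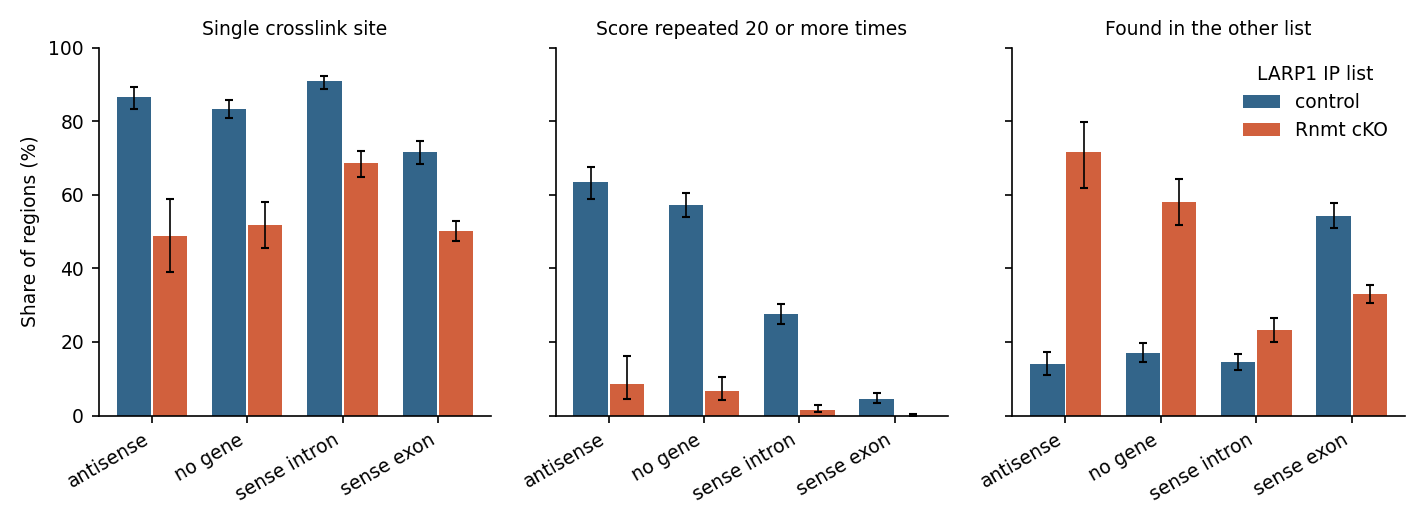
Share of regions (y axis, %, with 95% Wilson intervals as bars) with a single crosslink site, with a score repeated 20 or more times in the list, and found in the other list, for antisense regions, regions with no gene on either strand, and regions in sense introns and exons. Control antisense regions stand at 63.4% for repeated scores against 4.60% for sense exons, and Rnmt cKO antisense regions at 71.7% for sharing against 33.0%.

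Whether regions in introns lay on the sense or the antisense strand followed the repetition of the score. In control, regions in introns with a score repeated 20 or more times were antisense in 256 of 536 cases, a share of 47.8% (43.6 to 52.0%). Those with a score repeated 2 to 19 times were antisense in 61 of 409 cases (14.9%, 11.8 to 18.7%), and those with a score of their own in 87 of 473 (18.4%, 15.2 to 22.1%). In Rnmt cKO the counts were 8 of 18 (44.4%, 24.6 to 66.3%), 17 of 139 (12.2%, 7.78 to 18.7%) and 60 of 554 (10.8%, 8.51 to 13.7%). In both lists the interval of the most repeated scores held equal shares of both strands, and the intervals of the other scores lay below it. Over all gene bodies, exons included, 300 of 618 control regions with the most repeated scores were antisense (48.5%, 44.6 to 52.5%), against 100 of 1138 with a score of their own (8.79%, 7.28 to 10.6%).

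**Figure D3:**
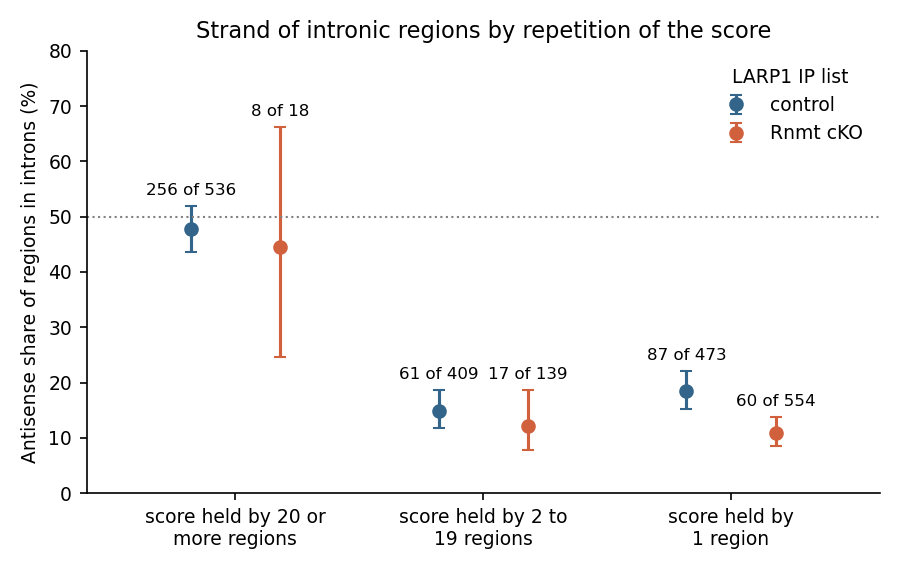
Antisense share of all regions in introns of either strand (y axis, %), with 95% Wilson intervals, by how many regions of the list held the same score, for the control and Rnmt cKO lists. Labels give antisense regions of all intronic regions, and the dotted line marks equal numbers on both strands, near which the 256 of 536 control regions with the most repeated scores lie.

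Repetition of the score also went with the linker letters in some classes. Among control antisense windows the match of 8 nt or more stood in 27 of 44 regions with the most repeated scores (61.4%, 46.6 to 74.3%) and in 16 of 25 others (64.0%, 44.5 to 79.8%). Among control sense exonic windows it stood in 20 of 38 (52.6%, 37.3 to 67.5%) and in 26 of 786 (3.31%, 2.27 to 4.80%). The antisense windows thus held the letters at both kinds of score, whereas in sense exons the shares differed.

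The 2 lists shared 66 antisense regions. These were 71.7% of the Rnmt cKO antisense regions (61.8 to 79.9%), where 35.4% of that list was shared, and 14.0% of the control ones (11.1 to 17.4%), where 26.3% of that list was shared. Within the Rnmt cKO list the antisense share lay 37.8 points above that of all other regions (27.7 to 46.2), 48.6 points above that of sense introns (38.1 to 57.3) and 13.6 points above that of regions with no gene (1.94 to 23.9). Within the control list it lay 14.5 points below that of all other regions (-17.8 to -10.7) and differed from that of sense introns by -0.544 points (-4.19 to 3.43).

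Sharing in control differed by the number of sites and by the repetition of the score. Of regions with 1 site 31 of 410 were shared (7.56%, 5.38 to 10.5%), of those with 2 or more sites 35 of 63 (55.6%, 43.3 to 67.2%), and of those with 3 or more 21 of 26 (80.8%, 62.1 to 91.5%). Of regions with the most repeated scores 10 of 300 were shared (3.33%, 1.82 to 6.03%), and of those with a score of their own 46 of 100 (46.0%, 36.6 to 55.7%). In Rnmt cKO, 29 of 45 with 1 site (64.4%, 49.8 to 76.8%) and 37 of 47 with more (78.7%, 65.1 to 88.0%) were shared. The 407 control regions found in that list alone had a median score of 8.34 against 66.7 for the shared ones, and the 26 Rnmt cKO regions alone had 5.10 against 21.8.

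**Figure D4:**
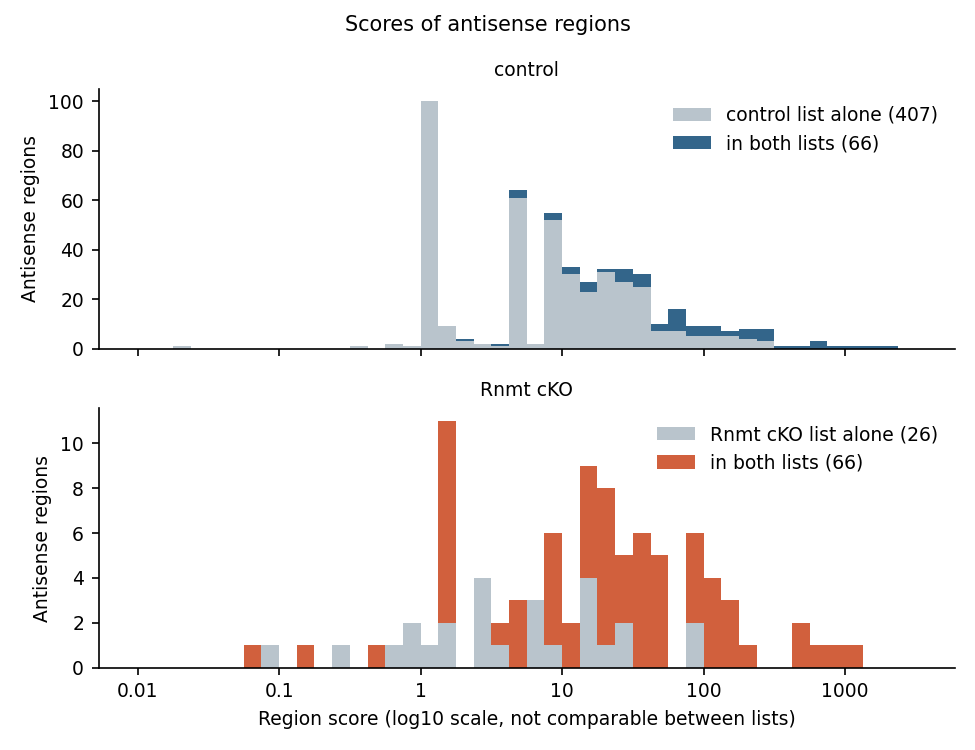
Number of antisense regions (y axis) by region score (x axis, log10 scale) in the control list (top) and the Rnmt cKO list (bottom), split into regions of that list alone (grey) and of both lists (colour). The columns of 407 control regions alone pile up at repeated scores such as 1.30928 and 4.83067, and the 66 shared regions have medians of 66.7 and 21.8.

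The shared regions matched closely in position. Of the 66 pairs 53 had the same first base and 42 the same start and end. The number of sites was equal in 44, higher in control in 9 and higher in Rnmt cKO in 13, and 25 had 1 site in both. Opposite an exon lay 5 and opposite an intron 61. Spearman's rho of the control against the Rnmt cKO score was 0.76 over the 66 pairs, which is across regions of 2 libraries and gives no replicate. The rank of a region in its own list is given below as the percentage of regions with an equal or lower score. Of the 66 pairs 12 were in the top 10% of both lists.

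The highest pair lay opposite a non-coding exon of Cit, the gene of citron kinase, which acts in cytokinesis. It had 5 sites and a score of 2251 in control (rank 99.9%) and 6 sites and 1272 in Rnmt cKO (98.8%), in the run of T shown above. The region opposite an intron of Vps13b, a lipid transport protein of the Golgi (chr15:35882819-35882821, minus), had 3 sites in both lists and scores of 1541 and 566. That opposite Gm3604 (chr13:62373134-62373136, plus) had 3 sites and scores of 990.0 and 945, and that opposite 2210408I21Rik (chr13:77256240-77256242, minus) 3 sites and 1256 and 481. All 4 ranked above 95% in both lists.

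The next in order lay opposite Rybp, a subunit of Polycomb complexes (chr6:100240950-100240951, plus), with scores of 736 in control and 148 in Rnmt cKO. The region opposite the 3'UTR of Osbpl5, an oxysterol-binding protein relative, had 1 site in both lists and scores of 708 and 114. Opposite introns of Ctnna3, an alpha catenin (chr10:64400024-64400025, minus), the scores were 299 and 471, with a rank of 95.9% in both lists. Those opposite Nos1ap (chr1:170467089-170467089, plus) were 620 and 104, those opposite Smad2, a transducer of TGF-beta signals (chr18:76245590-76245590, minus), 531 and 87.4, and those opposite Fry (chr5:150364555-150364558, minus) 372 and 186.

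At the lower end were pairs with a high rank in one list alone, named after their values were seen. Opposite Plppr1 the score was 2.01 in control (rank 28.1%) and 29.3 in Rnmt cKO (74.9%), and opposite Gm47030 it was 125 (92.2%) and 1.51 (20.0%). Opposite an intron of Tox, a transcription factor of T cells, the scores were 8.34 and 1.51, which are the repeated values of each list. Opposite the CDS of Notch1, a receptor that acts in T cell development, they were 11.8 and 1.51.

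**Figure D5:**
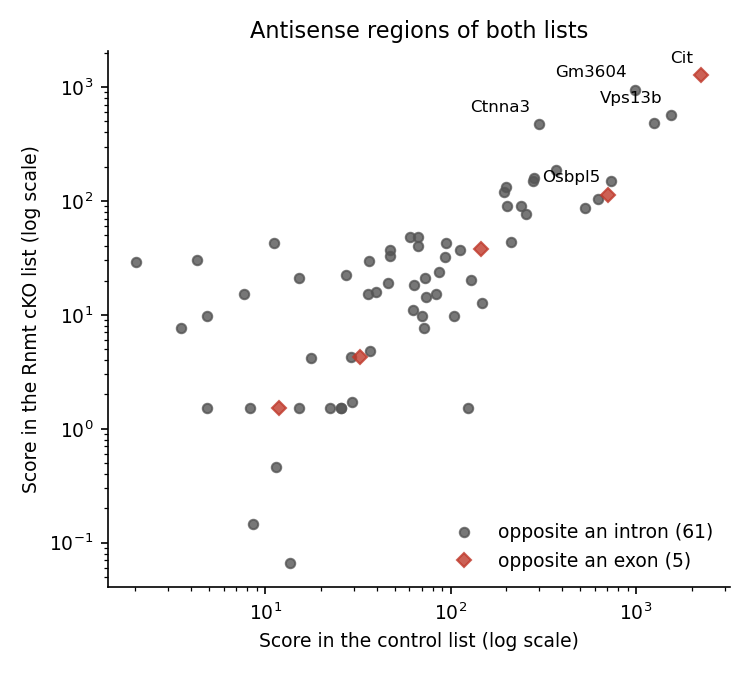
Score in the Rnmt cKO list (y axis, log scale) against score in the control list (x axis, log scale) for the 66 antisense regions of both lists, with the 5 opposite an exon as red diamonds. The pair opposite Cit, at 2251 and 1272, stands at the top right, and rho is 0.76.

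The highest antisense regions of the control list alone lay opposite the CDS of Stxbp3 (score 313, rank 96.1%), an intron of Pdzd2 (chr15:12635781-12635781, plus, 292), a non-coding exon of Gm38058 (248), the CDS of Zfp536 (231) and an exon of Stxbp3-ps (229). Each of the 4 opposite exons had a linker match of 13 or 14 nt, as did the region opposite Gm26691, whose score was 1.31 (rank 24.4%). The highest of the Rnmt cKO list alone lay opposite introns of Macc1 (chr12:119325198-119325221, minus, score 78.1, 5 sites, rank 87.8%), Lrba, a vesicle trafficking gene (chr3:86671792-86671802, minus, 76.4, 4 sites), Gpc5, a glypican (chr14:115997680-115997684, minus, 26.6), Gm11077 (chr6:140746942-140746944, minus, 24.8) and Tnr, tenascin-R (chr1:159608768-159608768, minus, 20.9, 1 site). None of the 5 Rnmt cKO regions reached the top 10% of its list, and the 5 control regions ranked between 94.9 and 96.1%. The 5 were the highest of 407 regions in control and of 26 in Rnmt cKO, so these ranks are not a like comparison of the lists.

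By summed score, antisense regions carried 11.9% of the control list and 4.02% of the Rnmt cKO list, of which the shared regions carried 7.41% and 3.81%. Without the scores repeated 20 or more times the antisense share of regions fell to 8.25% in control (173 of 2098) and stood at 3.60% in Rnmt cKO (84 of 2332). With at least 2 crosslink sites it was 11.4% in control (63 of 554) and 4.38% in Rnmt cKO (47 of 1073). The control share was the higher in both settings. Differences in depth, background and fitted model between the 2 libraries cannot be told apart from genotype.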

How the data were processed

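LARP1 eCLIP was analysed in 2 LARP1 IP libraries of naive CD4 T cells, 1 from control mice and 1 from Rnmt cKO mice. Per the study's methods, the authors extracted a random barcode of 10 nt (UMI-tools), trimmed adapters (cutadapt), aligned reads to mm10 (STAR 2.5.2b), removed duplicates by barcode and filtered alignments (SAMtools). PureCLIP was then run on each library with the size-matched input as control. The deposited lists give for each region the score of each of its crosslink sites in 1 column and the deposited region score, which was the sum of the site scores in 5580 of 5580 regions (within a relative tolerance of 0.0001). Each library had its own fitted model, so no ratio of scores was taken between the lists; the sum of both scores of a shared pair only set which pairs are named. The authors' later selection by read ratios to input and IgG had not been applied to the lists. It needs reads, which were not analysed here. No read counts are in the lists, so the depth is unknown.

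Regions of chromosome Y were left out, since the mice were female. Each region was set against all 55450 genes and 141767 transcripts of GENCODE M21 (GRCm38, named mm10 by the submitters). A region was shared if a region of the other list on its strand overlapped it by 1 nt or more. Bases were read from GENCODE M21 transcript sequences and RefSeq promoter windows (GRCm38.p6) over 30 nt, with 10 nt upstream of the first base of a region. The linker sequence was taken from the study's reagent list. Scripts ran in Python 3.11.15 with numpy 2.4.6, scipy 1.17.1 and matplotlib 3.10.9, and were tested on simulated regions.

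Shares are given with 95% Wilson intervals and differences of shares with Newcombe intervals. Intervals hold the counting error over regions only, without variation among mice or libraries. With 1 library in each group no test between the lists was made and no p-value is given. Where a count is 0, the limit given is the share that 3 counts would make. The regions named were the 10 with the highest summed score among those in both lists, the 5 with the highest score in each list alone, any opposite an exon of a ribosomal protein, other TOP or T cell gene, all regions of an opposite gene with 4 or more, and the 5 nearest an opposite start in each list. The regions described, the gene lists and these rules were chosen with earlier results of these data known. The comparison with the linker, and regions named outside the rules, were chosen after their values were seen. The alternatives tried were a minimum number of sites, the median score, scores that repeat, the basic annotation, the upstream window and the overlap. One result on a single gene is not reported here.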

Additional observations from a re-analysis of the deposited data

How the results depend on the processing

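Of 77 values under alternatives, over 17 results, 55 lay inside the 95% interval of the value in the report (for counts, within 1.5 times of it) and 22 moved outside. The 1000 nt upstream window and both other overlap rules moved none. Counts fell under filters by construction, and causes of other shifts were not tested. With at least 2 sites, 63 control and 47 Rnmt cKO antisense regions were left. The antisense share of the control list was 11.4%, the shared share of control regions was 49.2%, and the linker share was 75.0% (6 of 8). Repeated scores were held by 0 of 63 in control and 0 of 47 in Rnmt cKO. These counts of 0 follow from the filter, since every region with a score repeated 20 or more times had 1 site. Above the median score, 237 and 58 regions were left, and the antisense share of the Rnmt cKO list was 4.89%. Single sites made up 77.2% in control and 36.2% in Rnmt cKO, repeated scores 40.9% and 0%, and the shared share of control regions was 18.6%. That 0% in Rnmt cKO also follows from the filter, since the repeated score of that list, 1.50597, lay below its median of 8.11. Without scores repeated 20 or more times, 173 control regions were left, with an antisense share of the list of 8.25%, a single-site share of 63.6%, a shared share of 31.2% and an antisense share of regions in introns of 16.8%. With basic transcripts, 7.79% of control regions lay within 1000 nt of the opposite start, as fewer starts are annotated. A linker match of at least 10 nt was in 36.2% of control windows, and one of at least 7 nt in 68.1%.

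The settings for the linker share and for the share in introns were chosen after seeing the data. No paired analysis was possible because there was 1 LARP1 IP library for each genotype. For the same reason leaving out a replicate was not done. The depth of the libraries is unknown from the lists.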
